A study of Saccharomyces cerevisiae with 18 samples.

Results

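The genome that budding yeast (Saccharomyces cerevisiae) keeps in its mitochondria was followed through 30 genes, taken from 7126 features of the RNA files. Every feature whose identifier starts with Q0 and digits was included, together with the ribosomal RNA genes 15S_rRNA and 21S_rRNA. They comprised 8 coding genes, 10 open reading frames that lie in introns, 2 ribosomal RNA genes and 10 frames with no assigned function. The RefSeq table of the R64 assembly held 21 of the 30. The 9 without an entry were all unassigned frames and carry the identifiers of the files. Genes for the 23 mitochondrial transfer RNAs and RPM1, the RNA of mitochondrial RNase P, are not among the 30 and were used for comparison.

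The mitochondrial genome of this yeast codes for core membrane subunits of the respiratory chain and of the ATP synthase, for 1 protein of the mitochondrial ribosome, and for the RNAs that the organelle needs to translate them. A dedicated polymerase, Rpo41 with its factor Mtf1, copies the genome into long precursors that are cut and spliced into the mature RNAs. Messenger RNAs of yeast mitochondria end at a conserved short element and carry no poly-A tail, unlike nuclear messenger RNAs. COX1 and COB are split genes, and several of their introns hold frames that continue the reading frame of the exons before them and code for splicing factors (maturases), DNA endonucleases or reverse transcriptases.

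RNA was sequenced in 5 libraries, 1 for each condition. A wild-type library came from cells arrested in G1 and released into S phase at 28 °C for 15 min. The other 4 came from logarithmic cells grown at 28 °C and then held at 37 °C for 60 min: wild type, hmo1Δ (no Hmo1, an HMG-box protein of nuclear chromatin), top2-1 (a temperature-sensitive allele of DNA topoisomerase II) and the double mutant hmo1Δ;top2-1. The growth text given for all RNA samples describes only the move to 37 °C, and the sample label was followed for the 28 °C library. Temperature, cell cycle stage and time thus differ together between both wild-type libraries and cannot be told apart. Ribosomal RNA, mitochondrial ribosomal RNA included, was depleted with a Ribo-Zero Gold kit, and RNA with poly-A tails was then selected, per the labels' protocols. Values are RSEM expected counts, which need not be whole because reads that fit several genes are divided among them. With no replicates, no test between conditions was possible; bracketed ranges are exact 95% intervals for counting error alone, and PCR copies of a molecule, which cannot be recognised here, would make them too narrow. In bulk RNA, fewer mitochondrial genomes and less RNA from each cannot be told apart.

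Library totals ran from 4752471 counts (wild type, 37 °C) to 14770300 (wild type, 28 °C). HMO1, the deleted gene, had 0 counts in hmo1Δ and in the double mutant, against 1152 in wild type at 37 °C and 1327 in top2-1. The gene TRP1 also had 0 counts in both strains without Hmo1, against 152 in wild type at 37 °C and 204 in top2-1. The absence of HMO1 and that of TRP1 thus cannot be told apart in comparisons between strains with and without Hmo1. The libraries at 37 °C differed from the 28 °C library over many RNAs that carry no stable poly-A tail. SCR1, the nuclear-encoded RNA of the signal recognition particle, took 11.2% of counts at 28 °C and between 0.0117% and 0.0210% at 37 °C. The labels' protocols give poly-A selection for all 5 libraries, but the share of such RNAs leaves it in doubt whether the 28 °C library was selected in the same way, and any comparison with it carries that doubt. Nuclear coding genes took 77.6% of counts at 28 °C and between 97.9% and 98.1% at 37 °C.

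At 28 °C OLI1, COX2, COX1 and COX3 had the highest levels for their length among the 30 genes, and COB followed after the intron frame AI2 and the unassigned frame Q0297. OLI1, the ring subunit 9 of the ATP synthase, stood at 626.55 TPM, the deposited RSEM level that corrects for length and depth, and ranked 169 among all features. COX2, subunit 2 of cytochrome c oxidase, stood at 511 TPM, and COX1, its catalytic subunit, at 391.62 TPM. COX3, the third mitochondrial subunit of the same enzyme, stood at 325 TPM, and COB, cytochrome b of the cytochrome bc1 complex, at 235 TPM. These 5 genes thus spanned less than a 3-fold range. The order at the top was not fixed. Per kilobase of the full gene model COX2 led with 18047 counts, ahead of OLI1 with 14879 and COX1 with 14877, since TPM divides by the 135.83 bases of the OLI1 model in which a fragment can start and not by all 231.

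The remaining coding genes were far lower at 28 °C. ATP6, subunit a of the ATP synthase, had 706 counts and 25.5 TPM. ATP8, another membrane subunit of that complex, lies just before ATP6 (positions 27666 to 27812 and 28487 to 29266 of the mitochondrial chromosome, R64) in the same transcription unit. It had 17 counts and 7.78 TPM. Only 54.1 of the 147 bases in its model were open to a fragment start, so its level is poorly determined. VAR1, the ribosomal protein of the mitochondrial small subunit, had 34.9 counts over a 1197-base model and 0.78 TPM, the lowest level among the 8 coding genes. Its gene is made of almost nothing but A and T.

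Both ribosomal RNAs were detected after depletion. The 21S rRNA of the large subunit had 9727 counts and 75.3 TPM at 28 °C, and the 15S rRNA of the small subunit 2393 counts and 38.1 TPM. Both therefore stood below COX1, COX2, COX3, COB and OLI1 per length in this library. Their levels are what the depletion left, and they do not measure ribosome content.

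**Figure D1:**
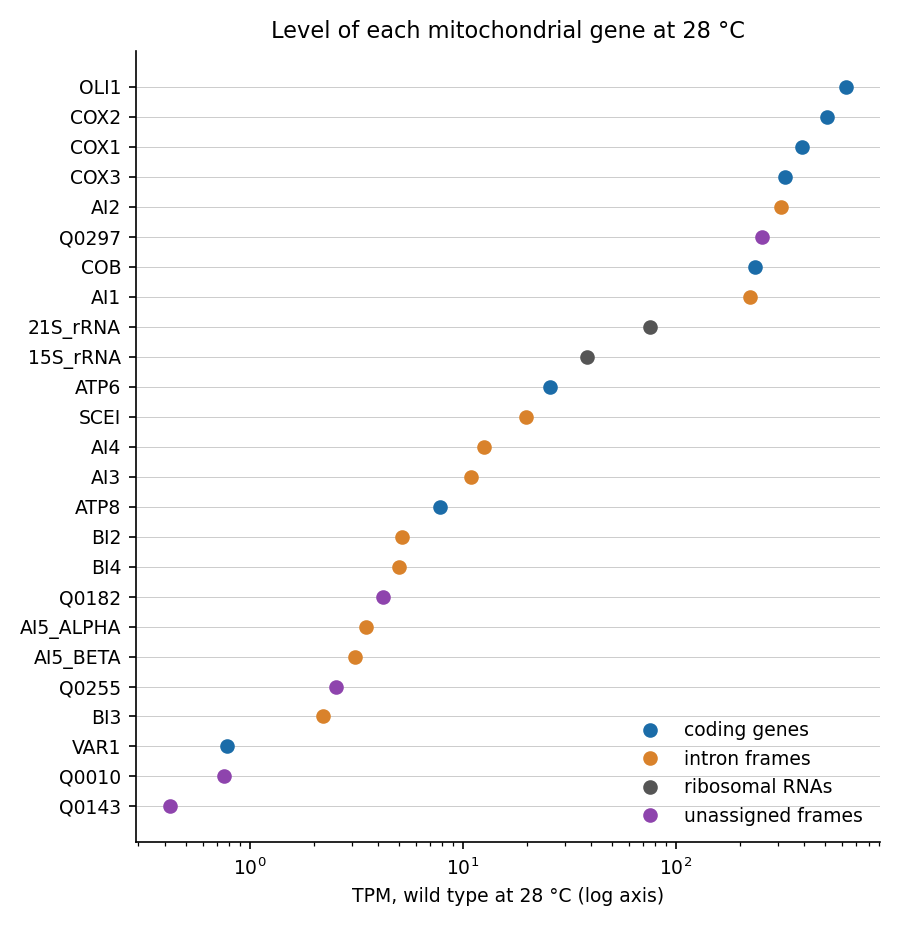
Level of the 25 mitochondrial genes with counts in the wild-type library at 28 °C, in TPM on a log axis, 1 point per gene and coloured by class. OLI1, at 626.55 TPM, lies at the top and Q0143, with 1 count, at the bottom, and the intron frames AI2 and AI1 lie among the coding genes while the other intron frames stand below 20 TPM.

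COX1 and its 6 AI frames together held 60.3% of all mitochondrial counts at 28 °C. COX1 spans positions 13818 to 26701 of the mitochondrial chromosome, but its spliced model in the files is 1605 bases. The frames AI1 to AI4 and AI5_ALPHA, 5 in all, begin at the same base as COX1, because each is read through from the first exon. AI5_BETA begins 3' of them, at position 24156. Reads from shared exons fit several of these models, and their counts were divided by estimation, so the split between COX1 and a frame is uncertain.

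AI2 had the highest count of any mitochondrial gene at 28 °C, 30895, and AI1 had 21662. Both are maturase and reverse transcriptase frames of group II introns, a self-splicing class that moves by way of an RNA copy. AI2 stood at 310 TPM, between COB and COX3, and AI1 at 223 TPM, just below COB. The other intron frames of COX1 were much lower, with 506 counts for AI3, 798 for AI4, 254 for AI5_ALPHA and 122 for AI5_BETA, all frames of group I introns. AI1 and AI2 made up 94.7% (94.6% to 94.9%) of the counts in intron frames. The AI frames made up 69.4% (69.1% to 69.8%) of the counts of COX1 and its frames together.

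COB did not share that pattern. Its 3 frames BI2, BI3 and BI4, all maturase or related frames of group I introns, begin at the COB start (position 36540) as well and run to positions 38579, 40265 and 42251. BI2 had 246 counts, BI3 130 and BI4 370, against 10100 for COB itself. The BI frames thus held 6.87% (6.40% to 7.36%) of the counts of COB and its frames. SCEI is the endonuclease frame in the intron of 21S rRNA (positions 61022 to 61729, inside the 21S span of 58009 to 62447). It had 488 counts and 19.7 TPM, which was 4.78% (4.37% to 5.21%) of the counts of 21S and SCEI together.

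**Figure D2:**
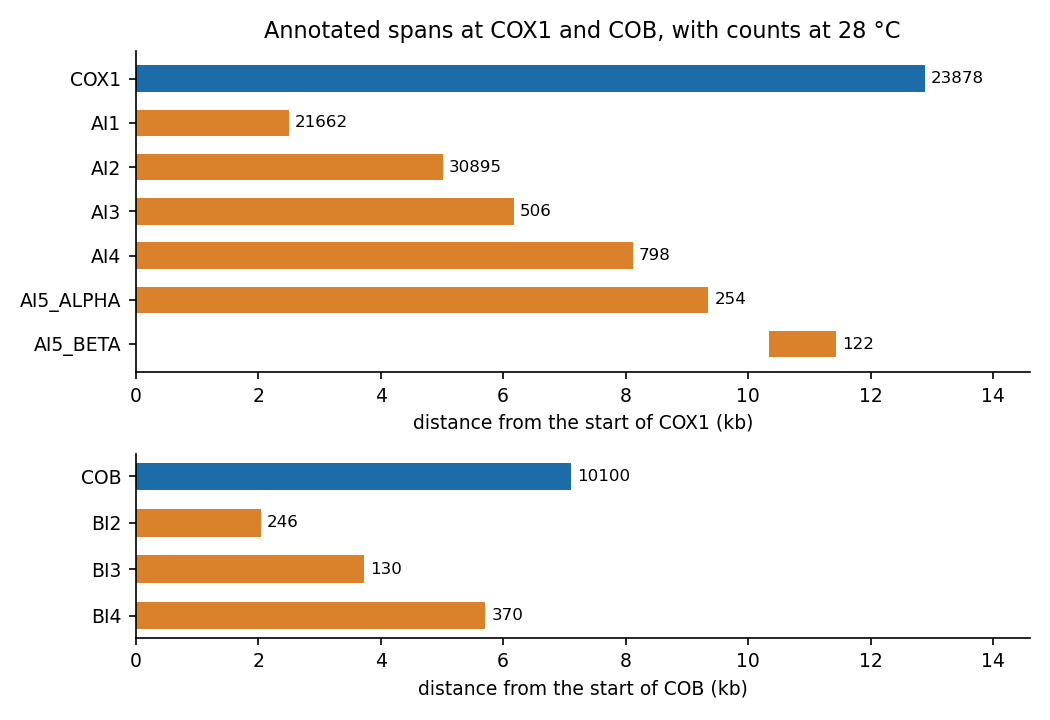
Annotated spans of COX1 and of COB (blue) with their intron frames (orange), as distance from the gene start in kilobases, introns included; the number beside each bar is its expected count in the wild-type library at 28 °C. AI1 and AI2 have counts close to or above that of COX1, whereas BI2, BI3 and BI4 each stay below 400 beside 10100 for COB.

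Of the 10 unassigned frames, 5 had counts at 28 °C. Q0297 had 638 counts and 253 TPM, a level close to that of COB, but over a model of 156 bases of which 62.4 were open to a fragment start. Per kilobase of model it had 4087 counts, below the 8722 of COB. Q0255 had 136 counts and 2.55 TPM over positions 74495 to 75984. Its first bases overlap the end of COX2 (positions 73758 to 74513), so part of its count could not be assigned to it alone. Q0182 had 52.7 counts, Q0010 had 9 and Q0143 had 1. Q0017, Q0032, Q0142 and Q0144 were at 0 in all 5 libraries, and Q0092 had a single count, in top2-1.

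Mitochondrial genes had few counts in each of the 4 libraries at 37 °C. The 30 genes had 129632 counts in wild type at 28 °C, and 333 in wild type, 897 in hmo1Δ, 535 in top2-1 and 576 in the double mutant at 37 °C. As a share of the library this was 0.878% (0.873% to 0.882%) at 28 °C. It was 0.00700% (0.00627% to 0.00780%) in wild type, 0.0126% (0.0118% to 0.0135%) in hmo1Δ, 0.00957% (0.00878% to 0.0104%) in top2-1 and 0.00621% (0.00571% to 0.00674%) in the double mutant. The 28 °C library stood above all the others by a wide margin. Among the 37 °C libraries hmo1Δ was highest, and the intervals of wild type and the double mutant overlapped. Scaled with TMM, which centres on most expressed genes, the sum in wild type was 231-fold lower at 37 °C (log2 ratio -7.85, -8.01 to -7.70).

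**Figure D3:**
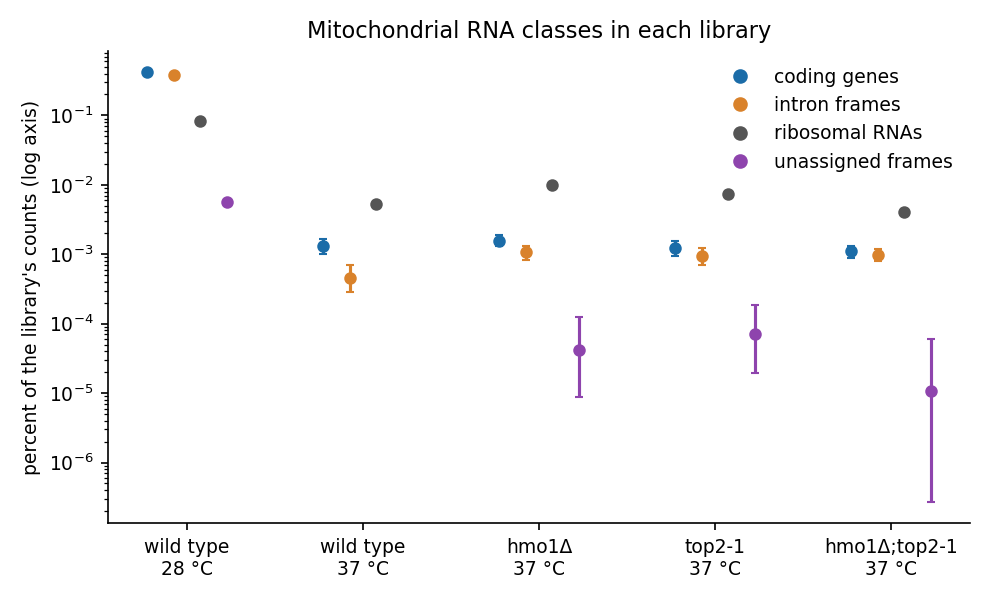
Percent of each library's counts in the 4 classes of mitochondrial genes, on a log axis, with exact 95% counting intervals; 1 point is 1 library. At 28 °C coding genes and intron frames lie above the ribosomal RNAs, while in all 4 libraries at 37 °C the ribosomal RNAs lie highest. Unassigned frames had 0 counts in wild type at 37 °C and have no point there.

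The classes fell to different extents between wild type at 28 °C and wild type at 37 °C. The ribosomal RNAs went from 12120 to 249 counts, a log2 ratio of -4.85. Within that pair 15S fell 15.1-fold and 21S 37.3-fold (log2 ratios of -3.92, -4.23 to -3.62, and -5.22, -5.46 to -4.99), with intervals that do not overlap. The coding genes went from 61206 to 62.2 counts, a log2 ratio of -9.19. The intron frames went from 55470 to 21.5 counts, a log2 ratio of -10.58. Unassigned frames went from 836 counts to 0, at least 166-fold lower when 0 is read as the floor of 3 counts per library.

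Among coding genes COX1 went from 23878 counts to 31.5 in wild type, 450-fold lower. COX2 went from 13644 to 13 counts, 623-fold lower, and COX3 from 9389 to 11.7 counts, 475-fold lower. The log2 ratios of these 3 genes, -8.81 (-9.34 to -8.29), -9.28 (-10.19 to -8.51) and -8.89 (-9.81 to -8.05), overlapped. COB kept 3 counts of 10100 (log2 ratio -10.96, -13.24 to -9.42), an interval that lies below that of COX1. OLI1 kept 2 of 3437 (log2 ratio -9.99, -13.04 to -8.14) and ATP6 0.96 of 706 (log2 ratio -8.77, -14.02 to -6.23). ATP8 and VAR1 were at 0 in all 4 libraries at 37 °C, where 3 counts would be between 3.23e-05% and 6.31e-05% of a library. For them this means at least 3.36-fold and 6.91-fold lower in wild type, bounds set by their low counts at 28 °C.

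Among intron frames AI2 fell most in wild type, from 30895 counts to 6 (log2 ratio -11.58, -13.02 to -10.46), and AI1 went from 21662 to 10.0 (log2 ratio -10.33, -11.39 to -9.45). AI5_ALPHA kept 4.49 of 254 counts, a log2 ratio of -5.07 (-7.12 to -3.86) that lies above those of AI1 and AI2. The frame thus lost less than AI1 and AI2, by an estimated split of few counts. It is not set apart from AI3 and AI4, whose upper limits of -6.34 and -7.00 lie within its interval. AI5_BETA kept 1 of 122 counts. AI3, AI4, BI2, BI3, BI4 and SCEI were at 0 in wild type at 37 °C, and the bounds ran from at least 25.6-fold (BI3) to at least 158-fold (AI4) lower.

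The rule of size used here is a difference of at least 1 in log2 CPM, computed with a prior count of 2, and where counts are few it can be met with no fold that the floor of 3 counts bears out. For it, 20 of the 30 genes were kept because their mean over the 5 libraries reached 20 counts, and all 20 were at least 2-fold lower in wild type at 37 °C, beside 17.3% of all features kept. None of the 20 was at least 2-fold higher, beside 15.1%. Only 4 of the 20 would have passed on the 37 °C libraries alone, so the others passed through the library in which they are high and the count is no support for a shared fall.

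Other RNAs without a stable poly-A tail were lower at 37 °C too. Between the wild-type libraries SCR1 had a log2 ratio of -10.79, the 6 small nuclear RNAs of the spliceosome together -7.42, and the 76 small nucleolar RNAs together -9.58. The RNAs of the nuclear RNases MRP and P, NME1 and RPR1, had log2 ratios of -8.42 and -8.61. The 23 mitochondrial transfer RNA genes went from 21669 counts to 0, and RPM1 from 90.8 to 0, in every library at 37 °C. On the scale of SCR1 the direction turned: there were 7.84 mitochondrial counts per 100 SCR1 counts in wild type at 28 °C and 60.0 at 37 °C. Per 100 counts of small nuclear RNAs there were 42.0 and 31.0. The part that retention of RNAs without a poly-A tail has in the difference between the libraries was not tested. Fragments were also shorter at 28 °C: gene models lost 95.2 bases to fragment length there and 121 to 137 bases at 37 °C, which left ATP8 54.1 bases open to a fragment start at 28 °C and 24.7 in wild type at 37 °C.

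The makeup of the mitochondrial counts changed with it. Ribosomal RNAs were 9.35% of mitochondrial counts at 28 °C. At 37 °C they were 74.8% (69.8% to 79.4%) in wild type, 78.8% (76.0% to 81.4%) in hmo1Δ, 76.8% (73.0% to 80.3%) in top2-1 and 66.3% (62.3% to 70.2%) in the double mutant. The last of these lies below hmo1Δ and top2-1, and its interval meets that of wild type. Intron frames were 42.8% at 28 °C and, at 37 °C, 6.47% in wild type, 8.39% in hmo1Δ, 9.78% in top2-1 and 15.9% in the double mutant. Coding genes were 47.2% at 28 °C and between 12.4% and 18.7% at 37 °C. By TPM, which counts length, ribosomal RNAs were 3.67% at 28 °C and between 32.5% and 53.8% at 37 °C. Summed TPM of coding genes lay above that of ribosomal RNAs in top2-1 (24.99 against 22.76) and the double mutant (17.34 against 11.63). It lay below in wild type at 37 °C (13.6 against 17.72) and hmo1Δ (19.37 against 28.54).

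**Figure D4:**
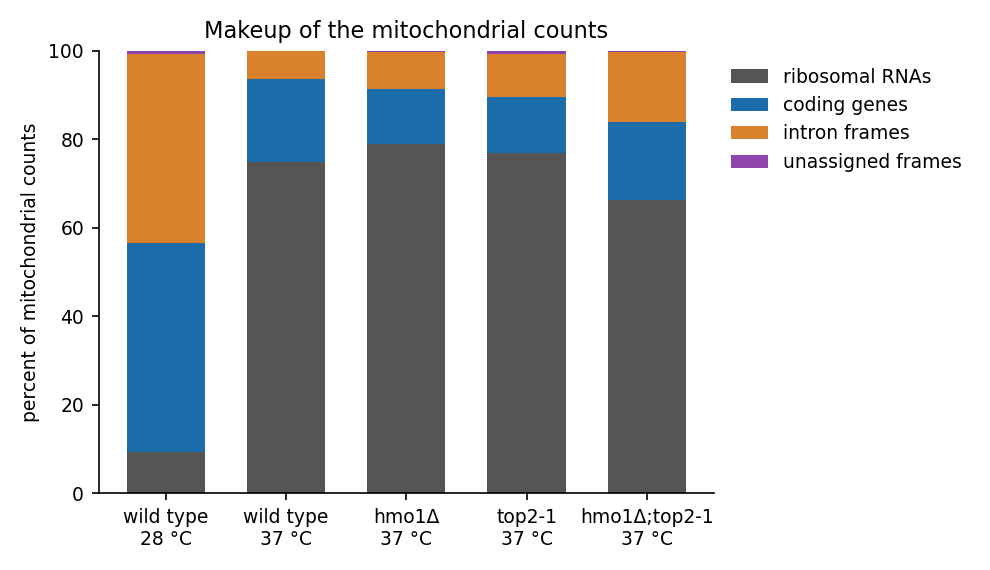
Percent of mitochondrial counts in each class, 1 stacked bar per library. Ribosomal RNAs fill 9.35% of the bar at 28 °C and between 66.3% and 78.8% of the bars at 37 °C.

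The balance of both ribosomal RNAs separated the libraries into higher and lower shares of 21S. It was 80.3% (79.5% to 81.0%) of their summed counts at 28 °C, 62.3% (55.9% to 68.3%) in wild type at 37 °C, 77.5% (74.3% to 80.5%) in hmo1Δ, 67.7% (62.9% to 72.1%) in top2-1 and 77.0% (72.4% to 81.1%) in the double mutant. Both strains without Hmo1 lay above both strains with it at 37 °C, and the intervals did not overlap between these pairs. With 1 library for each strain, a strain and a library cannot be told apart, and the depletion acts on these same RNAs.

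In hmo1Δ the mitochondrial sum was 2.13-fold higher than in wild type at 37 °C (log2 ratio 1.09, 0.91 to 1.28). The 21S rRNA went from 155 to 548 counts (log2 ratio 1.48, 1.22 to 1.75) and 15S from 94.0 to 159 (log2 ratio 0.42, 0.04 to 0.80), and the intervals of the ratios did not overlap. Among messenger RNAs COX2 went from 13 to 36 counts (log2 ratio 1.13, 0.18 to 2.17), while COX1, with 31.5 and 43.2 counts, differed by less than counting error (0.11, -0.61 to 0.79). COX3 had 11.7 and 9 counts, and its interval also held 0. AI1 went from 10.0 to 34.3 counts (log2 ratio 1.43, 0.38 to 2.61) and AI2 from 6 to 30.2 (log2 ratio 1.99, 0.69 to 3.54). COB, with 3 and 11.5 counts, OLI1, with 2 and 7, and ATP6, with 0.96 and 5, had intervals that held 0. Intron frames together went from 21.5 to 75.3 counts (log2 ratio 1.47, 0.73 to 2.19), and coding genes together stood at 0.50 (0.05 to 0.98).

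The rule of size was met upward by 9 of the 20 kept genes in hmo1Δ over wild type, beside 6.94% of all features, and downward by 0, beside 5.46%. The 9 were 21S rRNA, AI1, AI2, ATP6, COB, BI4, OLI1, COX2 and Q0255, and the last 8 rest on 36 counts or fewer in each library. BI4 and Q0255 had no more than 2 counts in either, so no fold is given for them. The median log2 difference of the 20 was 0.64, against -0.01 over all features kept. Its middle values were 0.638 (AI4, SCEI and Q0297) and 0.647 (AI5_BETA). These genes had at most 1 count in wild type and at most 3 in hmo1Δ, so the median measures no shift of the set. In every pair at 37 °C the median of the 20 takes in genes at or under the floor. SCR1 was higher in the same library by almost the same factor, from 555 to 1493 counts (log2 ratio 1.09, 0.95 to 1.23), and small nuclear RNAs by a log2 ratio of 0.80 (0.70 to 0.91). Other RNAs without a stable poly-A tail varied. Small nucleolar RNAs stood at 0.49 (0.35 to 0.63), NME1 at 1.71 (0.88 to 2.63) and RPR1 at -1.04 (-1.67 to -0.42). Per 100 SCR1 counts there were 60.0 mitochondrial counts in wild type and 60.1 in hmo1Δ. The part in this result of how much RNA without a poly-A tail a library retained was not tested.

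In top2-1 the mitochondrial sum was 1.33-fold that of wild type (log2 ratio 0.42, 0.21 to 0.62). The 21S rRNA had 155 counts in wild type and 278 in top2-1 (log2 ratio 0.57, 0.28 to 0.87), and 15S had 94.0 and 133 (0.23, -0.16 to 0.63). OLI1 was the only coding gene whose interval lay apart from 0, with 2 and 13 counts (log2 ratio 2.43, 0.29 to 5.62). COX1, with 31.5 and 25.0 counts, COX2, with 13 and 9, and COX3, with 11.7 and 7, all had intervals that held 0. Intron frames together had 21.5 and 52.3 counts (log2 ratio 1.01, 0.23 to 1.76), and coding genes together stood at -0.15 (-0.65 to 0.38). The rule of size was met upward by 4 of the 20 kept genes, ATP6, OLI1, SCEI and Q0297, beside 1.51% of all features, and downward by 0, beside 0.871%. The rule was met with 13 counts or fewer in each library. SCEI, with 0 and 4 counts, was at least 1.11-fold higher when 0 is read as the floor, and for Q0297, with 0 and 3 counts, no fold is given. The median log2 difference of the 20 was 0.61, against 0.0023 over all features kept. AI3, AI4, BI3, BI4 and Q0255 had 0 counts in both libraries and enter that median at 0. SCR1 had a log2 ratio of 0.61 in the same pair, and per 100 SCR1 counts there were 52.4 mitochondrial counts in top2-1. Small nuclear RNAs stood at 0.28, small nucleolar RNAs at 0.88, NME1 at 1.41 and RPR1 at 1.40.

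**Figure D5:**
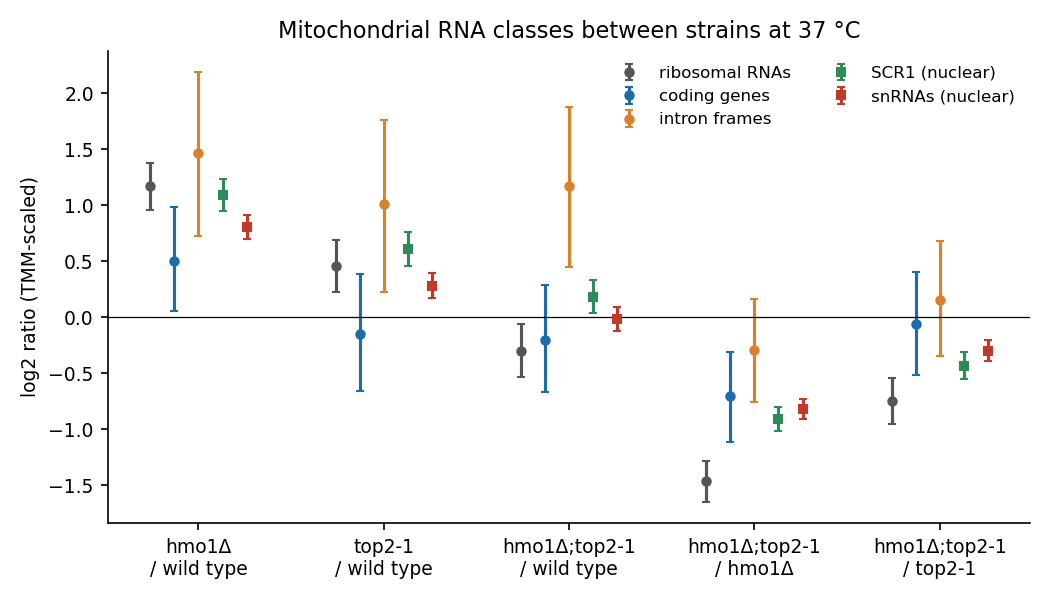
Log2 ratios between strains at 37 °C, TMM-scaled, with exact 95% counting intervals, for the summed counts of mitochondrial ribosomal RNAs, coding genes and intron frames (circles) and for the nuclear SCR1 and small nuclear RNAs (squares). The first 3 comparisons share the wild-type library. In hmo1Δ over wild type the ribosomal RNAs stand at 1.17 and SCR1 at 1.09.

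In the double mutant the sum did not differ from wild type beyond counting error (log2 ratio -0.12, -0.32 to 0.08), but its members went both ways. The 15S rRNA was lower, with 94.0 counts in wild type and 88 in the double mutant from a larger library (log2 ratio -1.01, -1.45 to -0.57). The 21S rRNA, with 155 and 294 counts, stood at 0.01 (-0.28 to 0.30). Intron frames together had a log2 ratio of 1.17 (0.45 to 1.88), from 21.5 to 91.3 counts. They also stood above wild type in hmo1Δ (1.47) and in top2-1 (1.01), over the same 21.5 counts, so this rise is not particular to the double mutant. AI5_ALPHA had 4.49 counts in wild type and 24.6 in the double mutant (log2 ratio 1.54, 0.20 to 3.71). These counts are an estimated split of reads shared with COX1 and other frames, and the interval leaves out the error of that split. SCEI had 0 and 15 counts, at least 2.65-fold higher. AI5_BETA had 1 and 10 counts, with an interval that held 0 (-0.41 to 7.85).

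The rule of size was met upward by 7 of the 20 kept genes in the double mutant over wild type, beside 4.40% of all features, and downward by 0, beside 3.68%. They were AI4, AI5_ALPHA, AI5_BETA, ATP6, BI4, OLI1 and SCEI. For AI4, with 0 and 4.77 counts, the floor bears out no increase (0.84-fold), and for BI4, with 0 and 2.88 counts, no fold is given. The kept genes had a median of 0.00. The fall of 15S just misses this rule, since the prior count used there draws its log2 difference to -0.99. SCR1 stood at 0.18 (0.03 to 0.33) and small nuclear RNAs at -0.01 (-0.12 to 0.09) in this pair, and small nucleolar RNAs at 1.15 (1.03 to 1.27). NME1 stood at 1.59 (0.79 to 2.49) and RPR1 at -0.15 (-0.62 to 0.34).

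The makeup of the intron frames varied among the libraries. AI5_ALPHA and AI5_BETA, the last frames of COX1, held 0.678% of intron frame counts at 28 °C, 25.5% (7.82% to 45.4%) in wild type at 37 °C, 9.48% (3.84% to 18.3%) in hmo1Δ, 24.0% (14.0% to 38.9%) in top2-1 and 37.9% (28.4% to 49.2%) in the double mutant. The double mutant lay above hmo1Δ and above the 28 °C library, and its interval met those of wild type and top2-1. SCEI held 0.880% of these counts at 28 °C and, at 37 °C, 0% (up to 15.4%) in wild type, 1.33% (0.03% to 7.21%) in hmo1Δ, 7.64% (2.14% to 18.5%) in top2-1 and 16.4% (9.53% to 25.7%) in the double mutant. AI1 and AI2 held 36.2% (26.4% to 47.0%) there, below the 74.5% (49.8% to 89.3%) of wild type, the 85.6% (75.3% to 92.4%) of hmo1Δ and the 66.0% (52.9% to 79.7%) of top2-1. These shares rest on 21.5 to 91.3 counts for each library at 37 °C. For the COX1 frames the intervals leave out the error of dividing shared reads between them.

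Against hmo1Δ the double mutant had 2.32-fold less mitochondrial RNA (log2 ratio -1.21, -1.37 to -1.06). The 15S rRNA had 159 counts in hmo1Δ and 88 in the double mutant (log2 ratio -1.43, -1.82 to -1.04), and 21S had 548 and 294 (-1.47, -1.68 to -1.27). The intervals of both overlapped. COX2 had 36 and 15 counts (log2 ratio -1.84, -2.81 to -0.93), AI2 30.2 and 7.23 (-2.64, -4.11 to -1.46) and COB 11.5 and 2.12 (-3.01, -6.36 to -0.99). AI5_ALPHA went the other way, with 4.14 and 24.6 counts (log2 ratio 2.00, 0.54 to 4.05), as did SCEI with 1 and 15 (3.33, 0.63 to 8.73). The AI5_ALPHA counts are an estimated split of shared reads, whose error its interval leaves out. Intron frames together stood at -0.30 (-0.75 to 0.17). Of the 20 kept genes, 6 met the rule downward, 15S rRNA, 21S rRNA, AI2, COB, COX2 and Q0255, beside 2.48% of all features, and 2 upward, AI5_ALPHA and SCEI, beside 1.69%. For Q0255, with 2 and 0 counts, no fold is given. Their median was -0.14. SCR1 had a log2 ratio of -0.91 and small nuclear RNAs -0.82 in this pair. Small nucleolar RNAs went the other way, at 0.66 (0.56 to 0.76), as did RPR1, at 0.89 (0.33 to 1.47). NME1 stood at -0.12 (-0.61 to 0.38). The part of these RNAs was not tested.

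Against top2-1 the double mutant had 1.45-fold less (log2 ratio -0.54, -0.71 to -0.37). The 15S rRNA, with 133 and 88 counts, stood at -1.24 (-1.65 to -0.84) and 21S, with 278 and 294, at -0.57 (-0.81 to -0.32). COB had 7.75 and 2.12 counts (log2 ratio -2.52, -5.92 to -0.32) and AI2 14.2 and 7.23 (-1.62, -3.19 to -0.24). COX1 had 25.0 and 51.7 counts, with an interval that held 0 (-0.30 to 1.16), and the coding genes together stood at -0.06. Of the 20 kept genes, 4 met the rule downward, 15S rRNA, AI2, COB and Q0297, beside 3.78% of all features, and 2 upward, AI4 and BI4, beside 3.65%. No fold is given for Q0297, with 3 and 0 counts, or BI4, with 0 and 2.88, and AI4, with 0 and 4.77, was at least 1.02-fold higher by the floor, so neither upward call is a 2-fold change that the counts bear out. Their median was -0.05. Here SCR1 stood at -0.43 and small nuclear RNAs at -0.30. Small nucleolar RNAs stood at 0.27 (0.18 to 0.36), NME1 at 0.18 (-0.35 to 0.72) and RPR1 at -1.55 (-1.91 to -1.20). Without the ribosomal RNAs the mitochondrial sum did not differ (log2 ratio 0.00, -0.33 to 0.34).

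A filter on the 37 °C libraries alone, with a mean there of 5 counts or more, kept 12 of the 30 genes. All 12 were at least 2-fold lower in wild type at 37 °C than at 28 °C, beside 16.0% of all features kept, and 0 were higher, beside 15.8%. In hmo1Δ over wild type 7 of the 12 met the rule of size upward, beside 7.81%, and 0 downward, beside 5.84%. In top2-1 over wild type 3 met it upward, SCEI among them, beside 2.11%, and 0 downward, beside 1.22%. By the same rule the double mutant had 4 higher than in wild type, beside 5.18%, and 0 lower, beside 4%. It had 2 higher than in hmo1Δ, beside 2.16%, and 5 lower, beside 2.82%, and 0 higher than in top2-1, beside 4.26%, and 3 lower, beside 4.08%. The 12 were both rRNAs, COX1, COX2, COX3, COB, OLI1, ATP6, AI1, AI2, AI5_ALPHA and SCEI. This filter takes in the libraries compared. SCEI (0, 1, 4 and 15 counts in wild type, hmo1Δ, top2-1 and the double mutant) and ATP6 (0.96, 5, 6 and 8) only just reached a mean of 5, and both were highest in the double mutant. COB (3, 11.5, 7.75 and 2.12) was highest in hmo1Δ. ATP6 and OLI1 had intervals that held 0 in hmo1Δ and in the double mutant over wild type. The calls are thus no support for a shift of the set.

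Fewer genes were detected at 37 °C. Above 0 were 25 of the 30 genes at 28 °C, 12 in wild type at 37 °C, 17 in hmo1Δ, 16 in top2-1 and 17 in the double mutant. Of all 7126 features 6559, 6401, 6419, 6447 and 6478 were above 0 in the same order. The library totals were 14770300, 4752471, 7096283, 5591118 and 9274003 counts, and the part of depth in these numbers was not tested. More than 3 counts were seen for 24 genes at 28 °C and for 8, 11, 12 and 13 at 37 °C in the same order. The genes over that mark in wild type at 37 °C were both rRNAs, COX1, COX2, COX3, AI1, AI2 and AI5_ALPHA. At 0 in all 4 libraries at 37 °C were 9 genes, among them ATP8, VAR1 and AI3, the last with 506 counts at 28 °C.

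The nuclear genes that serve mitochondrial transcription, RNA processing and translation went both ways between the wild-type libraries. Their messenger RNAs carry poly-A tails, which the mitochondrial RNAs lack, and TMM centres on most expressed genes. Their ratios therefore cannot be set against the fall of the mitochondrial RNAs. A list of 41 such genes held polymerase and DNA-maintenance proteins, splicing factors and the translational activators of single messenger RNAs, and all 41 were kept. Between the wild-type libraries 11 were at least 2-fold higher at 37 °C, beside 15.1% of all features, and 3 were at least 2-fold lower, beside 17.3%, with a median of 0.37 against 0.0068 over all features. CBS1, an activator of COB translation, was highest, with 29.5 counts at 28 °C and 113 at 37 °C (log2 ratio 2.69, 2.12 to 3.36), followed by PET54, an activator for COX3, at 1.63 and CBP6, another COB translation factor, at 1.61. Lowest were MIP1, the mitochondrial DNA polymerase, with 2170 and 413 counts (log2 ratio -1.64, -1.80 to -1.49), PIF1, a DNA helicase of nucleus and mitochondria, at -1.57, and PET122, another COX3 activator, at -1.15. RPO41 itself, with 1767 and 957 counts, stood at -0.13 (-0.25 to -0.02), and MTF1, with 146 and 203, at 1.23 (0.91 to 1.54).

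Among the strains at 37 °C the same 41 genes stayed within the 2-fold rule, except PET111, an activator of COX2 translation, in the double mutant over top2-1. Of all features kept, between 1.51% and 6.94% met the rule upward in these comparisons and between 0.871% and 5.46% downward. With shares that small, so few calls among 41 genes are not read as a trait of the list. In hmo1Δ over wild type the lowest were RIM1, a mitochondrial single-stranded DNA-binding protein (log2 ratio -0.98), SUV3, the helicase of the mitochondrial RNA-degrading complex (-0.89), and MSS116, a helicase for intron splicing (-0.72). The highest were PET494 (0.72) and ATP22 (0.67), translational activators for COX3 and ATP6, and MRM2, a methyltransferase for 21S rRNA (0.47). In top2-1 over wild type the range ran from PIF1 (-0.65), SUV3 (-0.54) and MSS51 (-0.53), a COX1 translation factor, to PET111 (0.36), CBP2 (0.35), a COB splicing factor, and CBP6 (0.55).

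In the double mutant over wild type MRM2 (0.84), RPM2 (0.69), the protein subunit of mitochondrial RNase P, and PET54 (0.53) were highest, and PIF1 (-0.90), PET122 (-0.85) and MSS116 (-0.76) lowest. Over hmo1Δ it ran from PET111 (-0.71), NAM2 (-0.48), a leucyl-tRNA synthetase with a part in splicing, and ATP22 (-0.35) to CBS1 (0.49), CBP6 and MNE1 (both 0.47), the last a COX1 splicing factor. Over top2-1 it ran from PET111, with 162 and 125 counts (-1.02, -1.37 to -0.67), RIM1 and CBP2 (both -0.68) to MRM2 (0.80), RPM2 (0.64) and AEP1 (0.36), a factor for OLI1 messenger RNA. The list's medians in these 5 comparisons lay between -0.22 and 0.12.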

How the data were processed

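Per the submitters' processing notes, reads were handled with STAR and RSEM on the R64 build; versions, annotation and the strand setting of the counting are not given in the sources used here. The authors deposited, per the file headers, RSEM expected counts, TPM and effective lengths for each gene. Libraries were strand-specific and sequenced on an Ion Proton, per the labels' protocols. There was 1 library for each condition and thus no estimate of replicate error.

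Sums, shares and ratios were computed from the expected counts, with exact (Clopper-Pearson) 95% intervals. Ratios were scaled with edgeR 4.0.16 TMM factors over the 5 libraries (R 4.3.3), from counts rounded to whole numbers. The rule of size, a difference of at least 1 (2-fold), was applied to log2 CPM (prior count 2) of genes whose mean reached 20 counts. A count of 0 was read as a floor of 3 counts per library, and no fold is given where both libraries held 3 counts or fewer. The steps were tested on simulated data drawn from the same mean profile for all libraries, for features whose mean reached 20 counts. That test did not cover a makeup like that of the 28 °C library, or genes with few counts in the libraries compared. DESeq2 1.42.0 size factors, library totals, other filters and priors, and TPM were alternatives. The 30 genes and the lists were chosen with earlier results of these data known. Named were all 30 genes, intron and unassigned frames in full where they had at least 100 counts at 28 °C or 3 at 37 °C, and the 3 highest and 3 lowest of the machinery list in each comparison. RPO41 and MTF1 were named after their values were seen. Coordinates are from RefSeq. No sequence is printed.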

Additional observations from a re-analysis of the deposited data

Results flagged for a closer look

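The mitochondrial sum was higher in hmo1Δ than in wild type but in the double mutant it was below that of top2-1, and the second of these rests on the ribosomal RNAs: without them the double mutant over top2-1 stood at 0.00 (-0.33 to 0.34), with coding genes at -0.06 and intron frames at 0.16. For the sum of the 30 genes the log2 ratios were 1.09 (0.91 to 1.28) and -0.54 (-0.71 to -0.37), a difference of -1.63. For both ribosomal RNAs together they were 1.17 and -0.75, a difference of -1.92. For 15S rRNA they were 0.42 and -1.24, a difference of -1.66, and for 21S rRNA 1.48 and -0.57, a difference of -2.05. For AI2, on 6 to 30.2 counts, they were 1.99 and -1.62, a difference of -3.61. Only sums and genes with both intervals apart from 0, on opposite sides, are listed, and the sums hold 15S and 21S. COX2 (1.13 and 0.09) and AI1 (1.43 and -0.30) are not among them, since their second intervals held 0. Each value rests on 1 library, and the difference was not tested. SCR1 moved the same ways, at 1.09 and -0.43, as did small nuclear RNAs, at 0.80 and -0.30. Small nucleolar RNAs (0.49 and 0.27), NME1 (1.71 and 0.18) and RPR1 (-1.04 and -1.55) did not change sign. The second NME1 interval held 0 (-0.35 to 0.72). The part of these RNAs was not tested.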

How the results depend on the processing

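No paired analysis was possible because each group holds 1 library. The mitochondrial sum kept its direction in all 6 comparisons with DESeq2 size factors and TMM over nuclear coding genes, and in the 5 among 37 °C libraries with TMM over those alone. With library totals its log2 ratio was -6.97 for wild type at 37 °C over 28 °C, 0.85 for hmo1Δ over wild type and -1.03 for the double mutant over hmo1Δ. Without the rRNAs these were -9.70, 0.84 and -0.54. The double mutant then stood at 0.30 (-0.08 to 0.68) over wild type and at 0.00064 (-0.33 to 0.34) over top2-1, and both intervals held 0. Without AI2 the first was -7.49. Scaling on SCR1 or on small nuclear RNAs was chosen after seeing the data. On SCR1 the first turned to 2.93 and top2-1 over wild type to -0.20, with 0.0035 for hmo1Δ over wild type, -0.31 for the double mutant over hmo1Δ and -0.11 over top2-1. On small nuclear RNAs the same 5 were -0.44, 0.13, 0.29, -0.39 and -0.24. By TPM sums they were -6.55, 1.09, 0.73, -0.66 and -1.02. As percent of TPM the mitochondrial share was 0.309 at 28 °C and 0.00330, 0.00548, 0.00700 and 0.00346 at 37 °C (wild type, hmo1Δ, top2-1, double mutant). Without rRNAs the share of counts was 0.796% and then 0.00176%, 0.00268%, 0.00222% and 0.00209%. At 28 °C it was 1.13% of nuclear coding counts and 1.02% with the transfer RNA genes. The rRNA share of mitochondrial TPM was 3.67%, 53.8%, 52.0%, 32.5% and 33.6%. Counts of genes past 2-fold moved more. Requiring a mean of 5 counts at 37 °C left 12 lower in wild type at 37 °C, 4 higher in the double mutant over wild type and 0 over top2-1. By log2(TPM + 1), 2 were higher in each of hmo1Δ, top2-1 and the double mutant over wild type, 1 in the double mutant over hmo1Δ, and 0 higher and 2 lower over top2-1. A prior of 0.5 gave 7 higher and 1 lower in top2-1, 3 lower in the double mutant over wild type, 5 higher over hmo1Δ and 4 higher over top2-1. Lower in the double mutant over wild type were 2 with library totals and 1 with DESeq2. Below 3 counts no difference could be seen at these depths. The cause of these shifts was not tested.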

Other observations

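The deposited lists of the other assays held nothing on the mitochondrial chromosome. The 4 lists of nucleosomes from histone H3 ChIP had between 10841 and 25035 entries, the Hmo1 peak lists 1511 and 1933, and the Top2 ChIA-PET list 1887. All entries lay on the 16 nuclear chromosomes. Whether mitochondrial reads had been removed before these lists were made is not stated in the labels.

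Mitochondrial transfer RNA genes were read at 28 °C only, where 22 of 23 had counts, 21669 in all or 0.147% of the library. Their models leave 3.92 to 11.0 bases open to a fragment start there and 1.28 to 5.06 bases at 37 °C, so levels per length are not given for them.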
